A study of Mus musculus with 9 samples.

Results

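The 41 genes described here encode the parts of the cell that condense, attach and separate chromosomes: mitotic kinases, the spindle checkpoint, centromere and kinetochore proteins, the chromosomal passenger complex, mitotic kinesins, spindle and cytokinesis proteins, and condensin with Top2a and Mki67. They were chosen by gene symbol, and all 41 were found among the 17596 genes of the deposited table of FPKM (a level in mapped fragments, corrected for transcript length and for the size of the library). All 41 were also among the 10823 genes whose mean over the 9 libraries was at least 1 FPKM, which were the genes tested. The filter did not rest on one condition, since each member was at or above 1 FPKM in every library.

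The lactate and pyruvate transporter MCT1 (gene Slc16a1) was the target of a deletion in B cells, made to learn what they need it for. Splenic B cells came from Mb1Cre mice, which carry Cre under a B lineage promoter and served as the control, and from Mct1f/fMb1Cre mice, which carry the same Cre and Mct1 alleles with loxP sites around exon 1 and intron 3, and the mice were 6 to 8 weeks old. RNA was sequenced from untreated cells (day 0, 2 libraries of each genotype) and from cells kept for 3 days with 10 μg/ml of lipopolysaccharide (LPS, a bacterial activator of B cells) and 50 ng/ml of interleukin-4 (IL-4, a T cell cytokine), with 2 Mb1Cre and 3 Mct1f/fMb1Cre libraries. The labels do not say whether libraries came from separate mice, so the p-values measure the spread between these samples, which may be technical. The 2 Mct1f/fMb1Cre libraries of day 0 differed in a male-specific gene, as given below, so those 2 were not from the same mouse.

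A resting B cell lies outside the cell cycle and keeps little of the mitotic machinery, and an activated one divides repeatedly. Most mitotic genes are held down in resting cells by the DREAM complex (the pocket proteins p107 and p130 with E2F4 and the MuvB core) and are transcribed late in the cycle by MuvB with B-Myb and FoxM1. Both complexes contact DNA at the cell cycle genes homology region, a short element near the transcription start, often with CCAAT boxes of the factor NF-Y upstream of it.

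That element is shown first, because it is a feature the choice of genes did not use. RefSeq promoters (build GRCm38.p6, 250 bases before to 50 after the start) were at hand for 35 members. On both strands, TTTGAA or TTTAAA, the letters of the element, occurred in 29 of the 35 (82.9%), against 22.8% of the tested genes and 30.6% of all genes with a promoter. A match starting no more than 60 bases before the start, or after it, was present in 25 (71.4%), against 6.8% of the tested genes and 10.5% of all genes. The letters CCAAT, on both strands, stood in 26 (74.3%), against 44.1% and 41.1%. These shares are descriptions, and a match of letters is not a bound site. The 30 bases below, 5′ to 3′ on the gene's strand and with the match in capitals, belong to those of 18 members chosen for full description whose match lay entirely within the last 60 bases before the start.
Cdk1 (chr10:69352913-69352942, minus strand, match starting 15 bases before the start): ctttaccgcggcgagTTTGAAactgctggc
Plk1 (chr7:122159394-122159423, plus strand, match starting 29 bases before the start): gcgggtttgtatTTTAAAtccccgcggcca
Cdc20 (chr4:118437344-118437373, minus strand, match starting 18 bases before the start): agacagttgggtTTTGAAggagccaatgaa
Espl1 (chr15:102296254-102296283, plus strand, match starting 27 bases before the start): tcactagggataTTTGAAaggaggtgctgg
Cenpa (chr5:30666856-30666885, plus strand, match starting 17 bases before the start): cacaaagttgggaTTTAAAagatgcggtgg
Kif11 (chr19:37376351-37376380, plus strand, match starting 19 bases before the start): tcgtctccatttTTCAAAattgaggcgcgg
Top2a (chr11:99024195-99024224, minus strand, match starting 23 bases before the start): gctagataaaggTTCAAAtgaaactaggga
The matches shown in these 7 promoters began 15 to 29 bases before the start, as the choice of windows required a match before it. Only Plk1 had no CCAAT box upstream of its match within the 250 bases before the start. Of the 35 promoters, 12 had a match beginning 0 to 24 bases after the start. In 8 a match began 25 to 49 bases after it, and in 7 a match began in the 25 bases before it. The starts are those of RefSeq. The GENCODE annotation has a start upstream of the match for Cdk1 and Cenpa and at its first base for Espl1, so for these 3 the marked letters are not before every annotated start. Neither letter string was found in the promoters of Bub1, Mad2l1, Pttg1, Nuf2, Nusap1 and Ncaph. Aurkb, Spc24, Incenp, Kif20a, Tpx2 and Smc4 were not examined for motifs.

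Before the comparisons, the libraries were checked against their labels. Slc16a1 was at 22.6 and 22.9 FPKM in the Mb1Cre day 3 libraries and at 10.8, 9.81 and 9.50 in Mct1f/fMb1Cre (log2 fold change −1.11 ± 0.07 SE, limma adjusted p = 9.07e-06), but on day 0 it was at 4.33 and 3.80 against 3.71 and 4.06 (limma adjusted p = 0.844). The day 0 libraries thus showed no lower Slc16a1 in the genotype labelled as deleted, and on day 3 the transcript was lower but not absent. All 8 B cell markers were above 1 FPKM in every library, with sums of 5312 to 5837 FPKM on day 0 and 2809 to 2895 on day 3. Day 0 libraries also held other cells' RNA: the 6 macrophage and monocyte markers summed to between 985 and 1286 FPKM on day 0 and to between 11.7 and 25.03 on day 3. The male-specific gene Ddx3y was at 31.1 FPKM in Mct1f/fMb1Cre day 0 replicate 1 and at 0.02 to 0.24 in the other day 0 libraries. It was at 14.7 to 16.9 in all day 3 libraries, so the Mb1Cre libraries of day 0 and day 3 were not from the same mice. Sex of the mice and activation thus cannot be told apart in Mb1Cre. Sex may also enter the Mct1f/fMb1Cre rise, the genotype comparison on day 0 and the interaction, and its part was not tested.

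**Figure D1:**
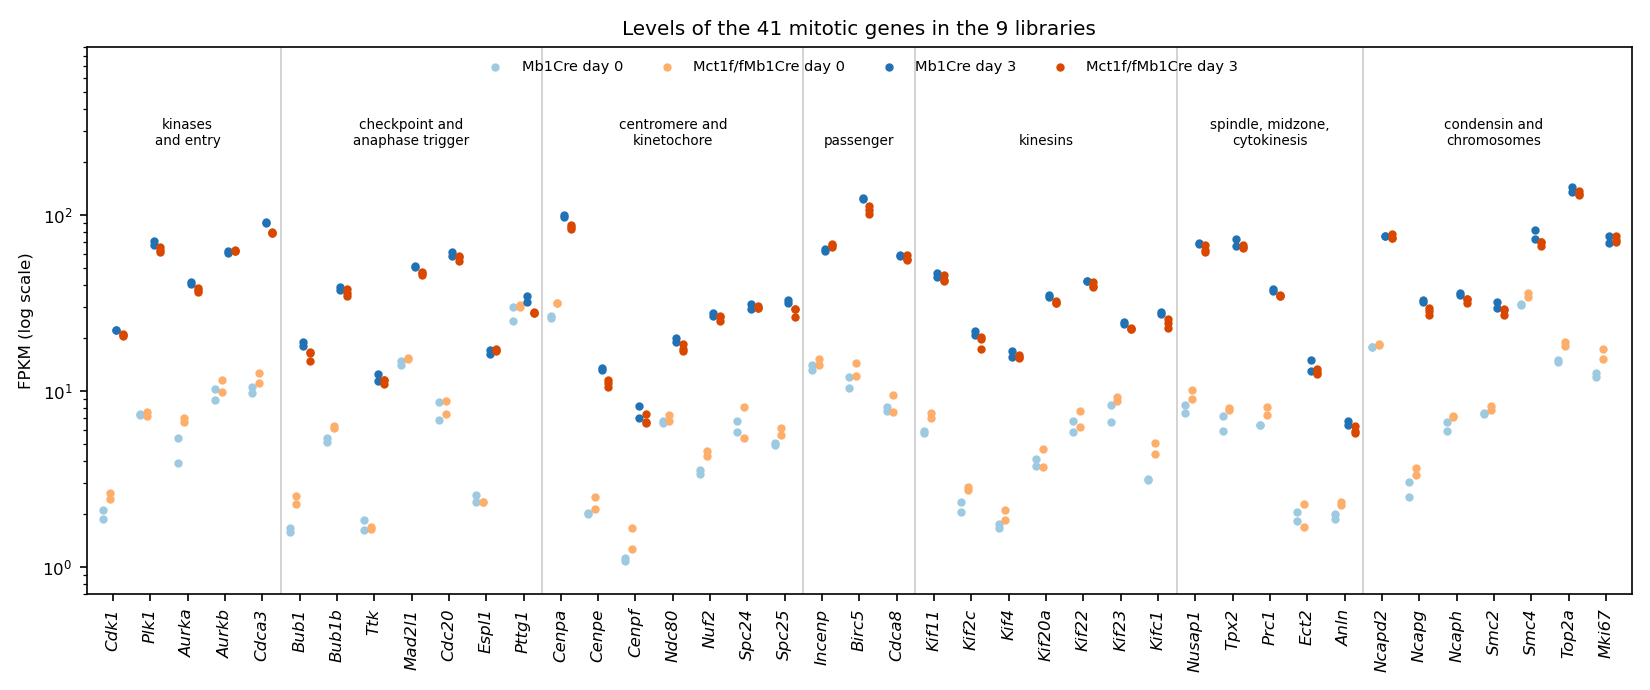
Level of each of the 41 mitotic genes (x axis, ordered by role) in FPKM on a log scale (y axis), with 1 point per library and colours for the 4 groups. The day 3 points lie above all day 0 points for every gene except Pttg1.

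The first comparison asked what 3 days of LPS and IL-4 did to the mitotic genes. Nearly all of them rose. A change was called when limma, run on log2(FPKM + 1), gave a Benjamini-Hochberg adjusted p under 0.05 over all tested genes and the log2 fold change was over 0.5 in size. In Mb1Cre cells 40 of 41 rose by this rule, against 24.8% of the tested genes called higher. In Mct1f/fMb1Cre cells 40 of 41 rose as well, against 23.4% of the tested genes. The median log2 fold change of the members was 2.56 in Mb1Cre and 2.29 in Mct1f/fMb1Cre, beside −0.12 and −0.14 over all tested genes. As the pseudocount of 1 understates changes of low genes, the ratio of the group means is given too: its median over the members was 6.91-fold in Mb1Cre and 5.81-fold in Mct1f/fMb1Cre. Pttg1 was the only member not called, in both genotypes.

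The sum over the 41 genes gives the size of this shift in each library. It was 320 and 330 FPKM in Mb1Cre and 361 and 387 in Mct1f/fMb1Cre on day 0. On day 3 it was 1837 and 1882 in Mb1Cre and 1760, 1712 and 1716 in Mct1f/fMb1Cre. The genes thus took 0.067% to 0.0786% of all FPKM on day 0 and 0.307% to 0.343% on day 3. In bulk RNA more dividing cells and more mitotic RNA per cell cannot be told apart, nor can LPS with IL-4 be told apart from time in culture, as no untreated cells of day 3 were measured. The fall of the macrophage and monocyte markers went with the rise, and its part in the result was not tested.

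**Figure D2:**
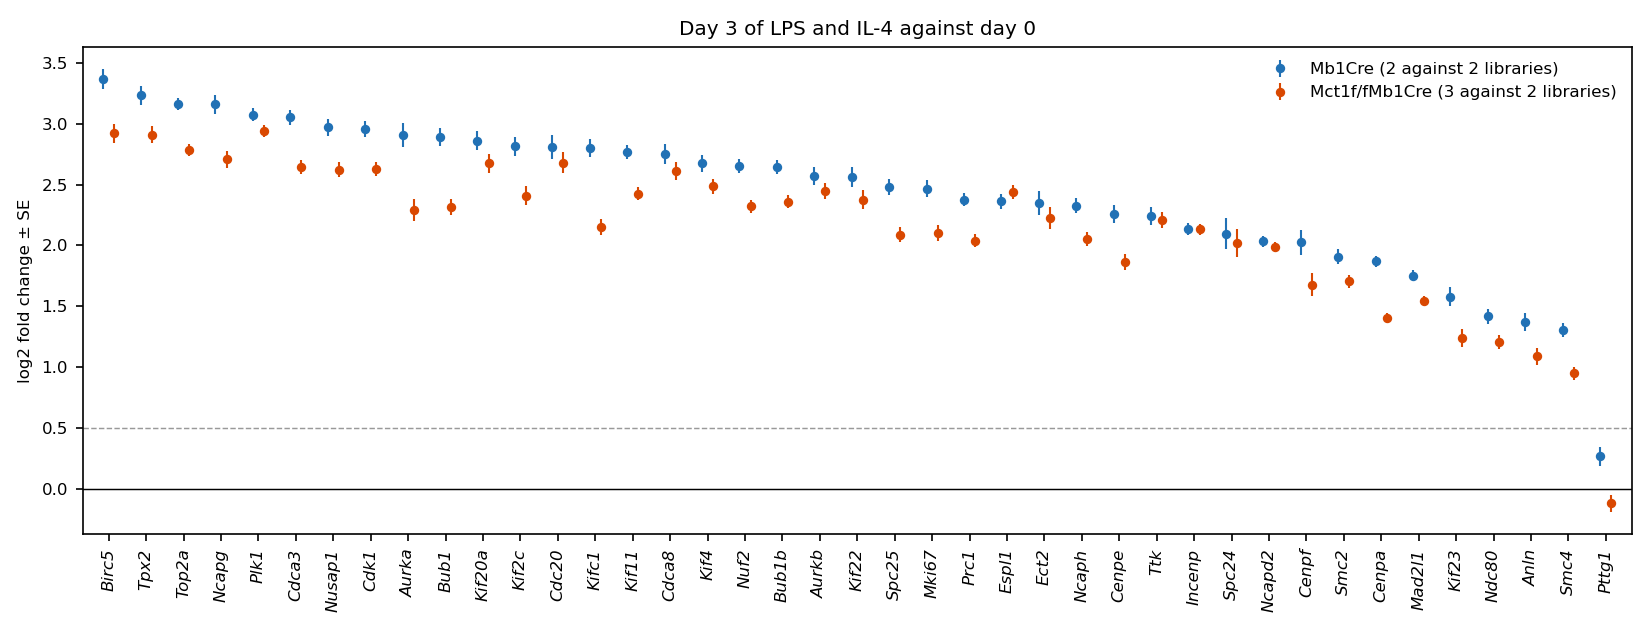
log2 fold change on the log2(FPKM + 1) scale, with its SE, of day 3 against day 0 for each mitotic gene (x axis, in order of the Mb1Cre value) in the 2 genotypes. The dashed line marks 0.5. Pttg1, at the far right, is the only gene under the line, and most Mct1f/fMb1Cre points lie below the Mb1Cre points of the same gene.

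All 5 genes of the mitotic kinases and entry group rose in both genotypes, with log2 fold changes of 2.57 to 3.07 in Mb1Cre. Cdk1, the kinase that drives entry into mitosis, was at 2.11 and 1.86 FPKM in Mb1Cre and at 2.41 and 2.63 in Mct1f/fMb1Cre on day 0. On day 3 it was at 22.2 and 22.0 in Mb1Cre and at 20.6, 21.1 and 20.6 in Mct1f/fMb1Cre. The days did not overlap, and the log2 fold changes were 2.95 ± 0.06 and 2.63 ± 0.06 SE (limma adjusted p = 1.17e-11 and 1.16e-11). Plk1, which matures the spindle poles, had the largest change of the group in Mb1Cre, from 7.25 and 7.36 to 67.2 and 70.7 FPKM (3.07 ± 0.05), and went from 7.21 and 7.61 to 66.0, 61.7 and 63.1 in Mct1f/fMb1Cre (2.94 ± 0.05). Aurkb, the kinase of the chromosomal passenger complex, had the smallest in Mb1Cre, from 8.89 and 10.2 to 60.9 and 62.3 (2.57 ± 0.07), and rose from 9.79 and 11.5 to 62.5, 62.0 and 62.9 in Mct1f/fMb1Cre (2.45 ± 0.07). Cdca3, a mitotic entry factor that takes part in the destruction of the Wee1 kinase, and Aurka, the centrosome kinase, rose by 3.05 and 2.91 in Mb1Cre on the log2 scale.

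Of the 7 genes of the spindle checkpoint and the anaphase trigger, 6 rose in both genotypes. Bub1, a checkpoint kinase at the kinetochore, had the largest change of the group in Mb1Cre. Its level went from 1.58 and 1.65 to 18.1 and 18.8 FPKM in Mb1Cre (2.89 ± 0.07) and from 2.27 and 2.53 to 16.6, 16.4 and 14.8 in Mct1f/fMb1Cre (2.31 ± 0.07). Mad2l1, the checkpoint protein that holds back Cdc20, started higher and rose less, from 14.8 and 14.0 to 51.0 and 50.6 in Mb1Cre (1.75 ± 0.05) and from 15.4 and 15.2 to 46.7, 45.7 and 47.1 in Mct1f/fMb1Cre (1.54 ± 0.04). Cdc20, the activator of the anaphase-promoting complex, rose from 6.83 and 8.65 to 61.2 and 58.6 (2.81 ± 0.09) and from 7.37 and 8.73 to 54.7, 57.7 and 58.2 (2.68 ± 0.09). The protease that opens cohesin rings was called, and its own inhibitor was not. Separase (Espl1) rose from 2.54 and 2.32 to 16.1 and 17.1 FPKM in Mb1Cre (2.36 ± 0.06) and from 2.34 and 2.33 to 16.9, 17.1 and 17.3 in Mct1f/fMb1Cre (2.44 ± 0.06). Securin (Pttg1), which keeps separase inactive until anaphase, was already at 24.8 and 30.04 FPKM in resting Mb1Cre cells and at 34.4 and 31.8 on day 3. In Mct1f/fMb1Cre it was at 30.9 and 29.8 on day 0 and at 27.7, 27.8 and 28.2 on day 3. Its log2 fold changes were 0.27 ± 0.08 (limma adjusted p = 0.00688, under the limit of 0.5) and −0.12 ± 0.07 (limma adjusted p = 0.14). The latter was above 0 with median-of-ratios scaling. It was below 0 with a limma adjusted p under 0.05 with scaling to the same total, with only the groups compared, or without either Mb1Cre day 0 library. Bub1b and Ttk, kinases of the same checkpoint, rose by 2.65 and 2.24 in Mb1Cre on the log2 scale.

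All 7 centromere and kinetochore genes rose in both genotypes, by 1.42 to 2.65 in Mb1Cre. Cenpa, the histone H3 variant that marks centromeres, was the most abundant of them, at 25.9 and 26.7 FPKM in Mb1Cre and 31.7 and 31.7 in Mct1f/fMb1Cre on day 0. It reached 97.5 and 99.8 in Mb1Cre (1.87 ± 0.04) and 82.9, 85.7 and 88.0 in Mct1f/fMb1Cre (1.40 ± 0.04). Ndc80, the kinetochore protein that grips microtubules, rose least, from 6.76 and 6.54 to 19.0 and 19.9 (1.42 ± 0.06) and from 6.76 and 7.32 to 16.9, 18.6 and 17.2 (1.21 ± 0.06). The genes of its own complex had larger values: Nuf2, its partner in the same rod-shaped complex, rose most of the group, from 3.56 and 3.37 to 27.5 and 26.7 in Mb1Cre (2.65 ± 0.06), and Spc24 and Spc25, the remaining subunits, rose by 2.10 and 2.48 on the log2 scale. Cenpe, a kinetochore motor, and Cenpf, a protein of the outer kinetochore, rose by 2.26 and 2.03, and Cenpf had the lowest day 0 mean of all members in Mb1Cre, at 1.10 FPKM.

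The chromosomal passenger genes all rose. Survivin (Birc5) had the largest log2 fold change of all 41 members in Mb1Cre, from 12.01 and 10.4 to 125 and 123 FPKM (3.37 ± 0.08), and went from 12.1 and 14.3 to 112, 101 and 106 in Mct1f/fMb1Cre (2.92 ± 0.08). Incenp, the scaffold of the complex, rose least of the group, from 13.2 and 14.0 to 64.0 and 61.9 in Mb1Cre and from 14.0 and 15.1 to 68.3, 65.3 and 67.6 in Mct1f/fMb1Cre (2.13 ± 0.05 in both). Cdca8 (borealin), the remaining subunit of the targeting module, rose by 2.75 in Mb1Cre and 2.61 in Mct1f/fMb1Cre on the log2 scale.

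All 7 kinesins rose in both genotypes. Kif20a, a kinesin of the central spindle, had the largest log2 fold change in Mb1Cre, from 4.09 and 3.71 to 34.1 and 35.1 FPKM (2.86 ± 0.08). Kif11, which slides spindle poles apart, rose from 5.74 and 5.91 to 44.2 and 46.9 in Mb1Cre (2.77 ± 0.06) and from 7.04 and 7.47 to 45.8, 42.4 and 41.9 in Mct1f/fMb1Cre (2.42 ± 0.05). Kif23, the motor of the centralspindlin complex, rose least, from 6.66 and 8.34 to 24.04 and 24.5 (1.58 ± 0.08) and from 8.74 and 9.21 to 22.8, 22.5 and 22.5 (1.24 ± 0.07). Kif2c, which depolymerises microtubules, Kif4 and Kif22, chromosome-bound motors, and Kifc1, a motor that moves towards the minus end of microtubules, rose by 2.56 to 2.81 in Mb1Cre. Kif4 and Kif22 have pseudogenes named after them in the genome annotation (Kif4-ps and Kif22-ps) that may share reads with them.

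All 5 spindle assembly and cytokinesis genes rose. Tpx2, an activator of Aurora A on the spindle, had the largest change, from 7.21 and 5.89 to 66.4 and 73.1 FPKM in Mb1Cre (3.23 ± 0.08). Prc1, which bundles microtubules of the midzone, rose from 6.39 and 6.38 to 36.7 and 38.0 (2.38 ± 0.06) and from 7.24 and 8.11 to 34.9, 34.6 and 34.4 in Mct1f/fMb1Cre (2.04 ± 0.05). Anln (anillin), a scaffold of the contractile ring, had the smallest change and the lowest day 3 level of all members, from 1.87 and 1.99 to 6.42 and 6.70 (1.37 ± 0.07) and from 2.33 and 2.24 to 6.34, 5.72 and 5.93 (1.09 ± 0.07). Nusap1, a microtubule-binding spindle protein, and Ect2, the exchange factor that activates RhoA at the cleavage site, rose by 2.97 and 2.35 in Mb1Cre.

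The condensin and chromosome structure genes rose in both genotypes. Condensin has a pair of SMC ATPases, Smc2 and Smc4, and the subunits of condensin I measured here were Ncapd2, Ncapg and Ncaph. Smc4 was at 30.5 and 31.2 FPKM in resting Mb1Cre cells, the highest day 0 mean of all members, and at 73.3 and 82.5 on day 3, the smallest called change in Mb1Cre (1.31 ± 0.06). Smc2 went from 7.49 and 7.39 to 29.5 and 31.8 (1.91 ± 0.06), and from 7.74 and 8.16 to 28.7, 29.1 and 26.8 in Mct1f/fMb1Cre (1.71 ± 0.05). Ncapd2 went from 17.8 and 17.7 to 75.9 and 75.6 (2.03 ± 0.04), and from 18.4 and 18.1 to 74.3, 74.0 and 78.0 in Mct1f/fMb1Cre (1.99 ± 0.04). Among the non-SMC subunits Ncapg changed most, from 2.49 and 3.03 to 32.1 and 32.8 (3.16 ± 0.08), which is 11.8-fold as a ratio of means, and Ncaph rose by 2.33 on the log2 scale. Top2a, which untangles sister chromatids, had the highest day 3 level of all members. It rose from 14.9 and 14.5 to 134 and 144 FPKM in Mb1Cre (3.16 ± 0.05) and from 17.9 and 19.0 to 137, 129 and 131 in Mct1f/fMb1Cre (2.78 ± 0.05). Mki67, the Ki-67 protein that coats mitotic chromosomes, rose from 12.6 and 12.01 to 68.9 and 76.3 (2.47 ± 0.07) and from 15.2 and 17.3 to 76.2, 71.9 and 70.5 (2.10 ± 0.06).

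A further 114 genes of the same pathway were measured for comparison. In Mb1Cre 81 rose and 4 fell, where 24.8% of the tested genes were called higher and 33% lower. In Mct1f/fMb1Cre 77 rose and 4 fell, where 23.4% of the tested genes were called higher and 33.2% lower. Their median log2 fold changes were 1.09 and 1.14. Mybl2 (B-Myb) had the largest change of them, from 4.23 and 3.67 to 76.9 and 79.4 FPKM in Mb1Cre (limma log2 fold change 4.002, adjusted p = 2.48e-12), followed by the cyclin Ccnb1 (3.46), the centromere gene Cenpm (3.28), the ubiquitin-conjugating enzyme Ube2c (3.02) and the abscission gene Cep55 (2.93). The 4 that fell in Mb1Cre were Haus8, an augmin subunit (−1.04), Numa1, a spindle pole protein (−0.90), Rbl2, which encodes the pocket protein p130 (−0.74), and the cohesin subunit Stag2 (−0.60). Rbl2 went from 22.6 and 21.8 to 12.4 and 13.5 FPKM. Foxm1 rose by 1.89 and Rbl1, which encodes p107, by 0.53, and E2f4 changed by 0.48, under the limit of 0.5. Of the 16 genes of the anaphase-promoting complex in this list, 7 rose in Mb1Cre, against 24.8% of the tested genes, and the median of the 16 was 0.45.

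The second comparison asked whether the activated cells of the 2 genotypes differed. They differed little. On day 3, 0 of 41 members were called by limma, against 2.42% of the tested genes. With the adjusted p alone, 5 were lower and 0 higher in Mct1f/fMb1Cre, beside 9.21% of the tested genes lower and 6.03% higher. An unadjusted p under 0.05 was reached by 13 members, against 29% of the tested genes. By sign, 37 of 41 were lower (35 with each of 3 other scalings), against 53.3% of the tested genes, and the median was −0.11 against −0.01. In 26 members all Mct1f/fMb1Cre libraries lay below both Mb1Cre libraries, against 26.1% of the tested genes, and in 1 member, Incenp, they lay above, against 21%.

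The 5 lower members are given as values, as their share was close to that of the tested genes. Cenpe, the kinetochore motor, had the largest difference, at 13.2 and 13.5 FPKM in Mb1Cre and 11.5, 11.1 and 10.5 in Mct1f/fMb1Cre (log2 fold change −0.25 ± 0.07 SE, limma adjusted p = 0.031), which is 82.8% of the control mean. Cenpa was the one with the smallest p, at 97.5 and 99.8 against 82.9, 85.7 and 88.0 (−0.20 ± 0.04, limma adjusted p = 0.00666). Pttg1 was at 34.4 and 31.8 against 27.7, 27.8 and 28.2 (−0.24 ± 0.07, limma adjusted p = 0.044). No library of one genotype overlapped the other in these 3 genes. Cdca3 differed by −0.19 ± 0.05 and Smc4 by −0.18 ± 0.05 (limma adjusted p = 0.0393 and 0.0477). Birc5 (−0.22) and Bub1 (−0.20) had differences of the same size with adjusted p of 0.074 and 0.0699. The 4 members with a positive sign were Incenp (0.09 ± 0.05), Espl1 (0.04), Aurkb (0.02) and Mki67 (0.01), with limma adjusted p of 0.242 to 0.962. The list also depended on the model: 1 member passed with quantile normalization, with no filter on low values or with a replicate block, 2 with median-of-ratios scaling or no trend, 4 with scaling to the same total, 7 with only the groups compared and 9 with a pseudocount of 5. Without Mb1Cre day 3 replicate 2 none of the 5 kept an adjusted p under 0.05, and without another day 3 library 1 or 2 members did. The 4 plasma cell markers summed to 379 to 393 FPKM in Mb1Cre and 321 to 352 in Mct1f/fMb1Cre on day 3, but they did not move together: Jchain and Xbp1 were lower and Sdc1 and Prdm1 higher, each without overlap. The 6 macrophage and monocyte markers summed to 11.73 to 13.14 against 20.07 to 25.03, and the 3 platelet and megakaryocyte markers to 2.36 to 2.46 against 2.69 to 3.94. The 5 germinal centre markers summed to 51.15 to 51.39 against 45.37 to 50.92. Sums of the other marker lists overlapped between the genotypes. The part of these cell types in the day 3 result was not tested.

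**Figure D3:**
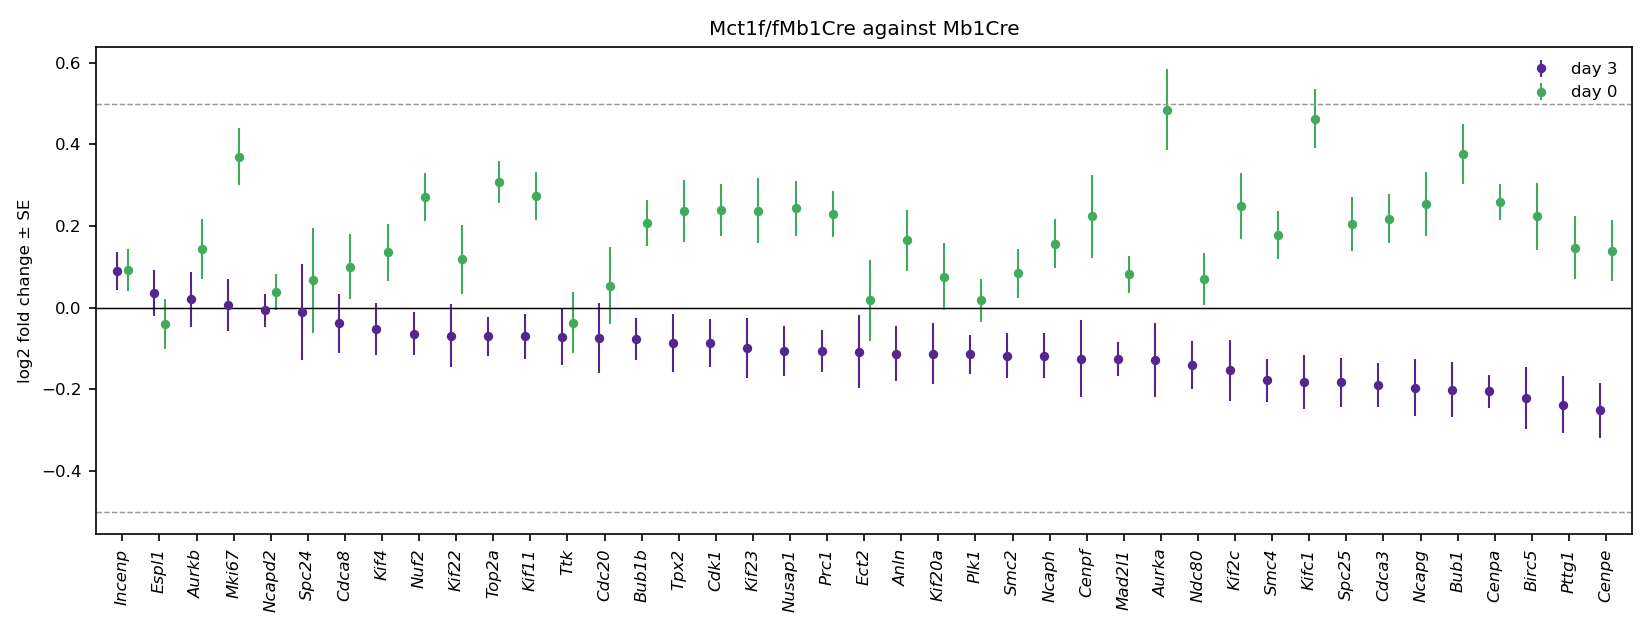
log2 fold change on the log2(FPKM + 1) scale, with its SE, of Mct1f/fMb1Cre against Mb1Cre on day 3 and on day 0 for each mitotic gene (x axis, in order of the day 3 value). Dashed lines mark −0.5 and 0.5. Day 3 values lie between −0.25 and 0.09, and 39 of 41 day 0 values lie above 0.

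Among the other pathway genes 0 were called on day 3. With the adjusted p alone 7 of 114 were lower and 1 higher, against 9.21% and 6.03% of the tested genes, and 31 had an unadjusted p under 0.05 in limma, against 29%. These shares were not above those of the tested genes, and the names below are given as values. The largest was Cdc25b, the phosphatase that activates Cdk1, at 47.3 and 47.3 FPKM in Mb1Cre and at 34.1, 33.9 and 34.5 in Mct1f/fMb1Cre (−0.46, limma adjusted p = 0.000212). The others were Hmmr, Dlgap5, Oip5, Zwint, Rbl2 and Hjurp, at −0.26 to −0.15, and Anapc5 at 0.16. Foxm1 was at 24.1 and 23.9 against 24.3, 24.2 and 24.5 FPKM, Mybl2 differed by −0.18, Rbl1 by 0.12 and E2f4 by 0.10 (limma adjusted p of 0.879, 0.0541, 0.29 and 0.146).

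The third comparison asked whether the resting cells already differed. The sign was the other way: 39 of 41 members were higher in Mct1f/fMb1Cre on day 0 (38 with quantile normalization), against 48.7% of the tested genes, and the median was 0.18 against −0.00249 over all tested genes. None was called, against 0.277% of the tested genes. With the limma adjusted p alone 3 were higher and 0 lower, against 0.351% of the tested genes higher, and 22 had an unadjusted p under 0.05, against 11.7% of the tested genes. In 29 members both Mct1f/fMb1Cre libraries lay above both Mb1Cre libraries, against 18.7% of the tested genes, and in none below.

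The 3 genes were Kifc1, Top2a and Cenpa. Kifc1 was at 3.14 and 3.09 FPKM in Mb1Cre and at 4.34 and 5.03 in Mct1f/fMb1Cre (0.46 ± 0.07 SE, limma adjusted p = 0.0241). Top2a was at 14.9 and 14.5 against 17.9 and 19.0 (0.31 ± 0.05, limma adjusted p = 0.0333), and Cenpa at 25.9 and 26.7 against 31.7 and 31.7 (0.26 ± 0.04, limma adjusted p = 0.0337). Aurka had the largest difference, 5.40 and 3.89 against 6.68 and 6.99, with a wider spread in the control (0.49 ± 0.10, limma adjusted p = 0.0843). Bub1 (0.38) and Mki67 (0.37) followed. The 2 members below 0 were Espl1 and Ttk, both at −0.04. The count of 3 by the adjusted p fell to 0 with no filter on low values, no trend, a replicate block or only the groups compared, and to 1 with a pseudocount of 5 or scaling to the same total. It also fell to 0 without Mct1f/fMb1Cre day 0 replicate 2, either Mb1Cre day 3 library or Mct1f/fMb1Cre day 3 replicate 3, and to 1 without Mb1Cre day 0 replicate 1 or Mct1f/fMb1Cre day 3 replicate 2.

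The resting libraries were not alike in other cells' RNA, and these values stand beside the day 0 difference. The 8 neutrophil and myeloid precursor markers summed to 441 and 594 FPKM in Mb1Cre and to 1425 and 487 in Mct1f/fMb1Cre. The 8 erythroid markers summed to 151 and 130 against 237 and 152, and the 4 plasma cell markers to 134 and 150 against 234 and 191. All 3 sums were highest in Mct1f/fMb1Cre replicate 1. The sum of the mitotic genes was 361 FPKM in that library and 387 in Mct1f/fMb1Cre replicate 2. Without replicate 1 the median difference of the members was 0.23, and without replicate 2 it was 0.14, with 32 higher and 9 lower. The T and NK cell markers summed to 50.2 to 58.7 FPKM over the day 0 libraries, the platelet markers to 3.98 to 10.3 and the germinal centre markers to 46.2 to 56.4. None of these markers was at 0 in all libraries of a day 0 group. The part of other cells in the day 0 difference was not tested.

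**Figure D4:**
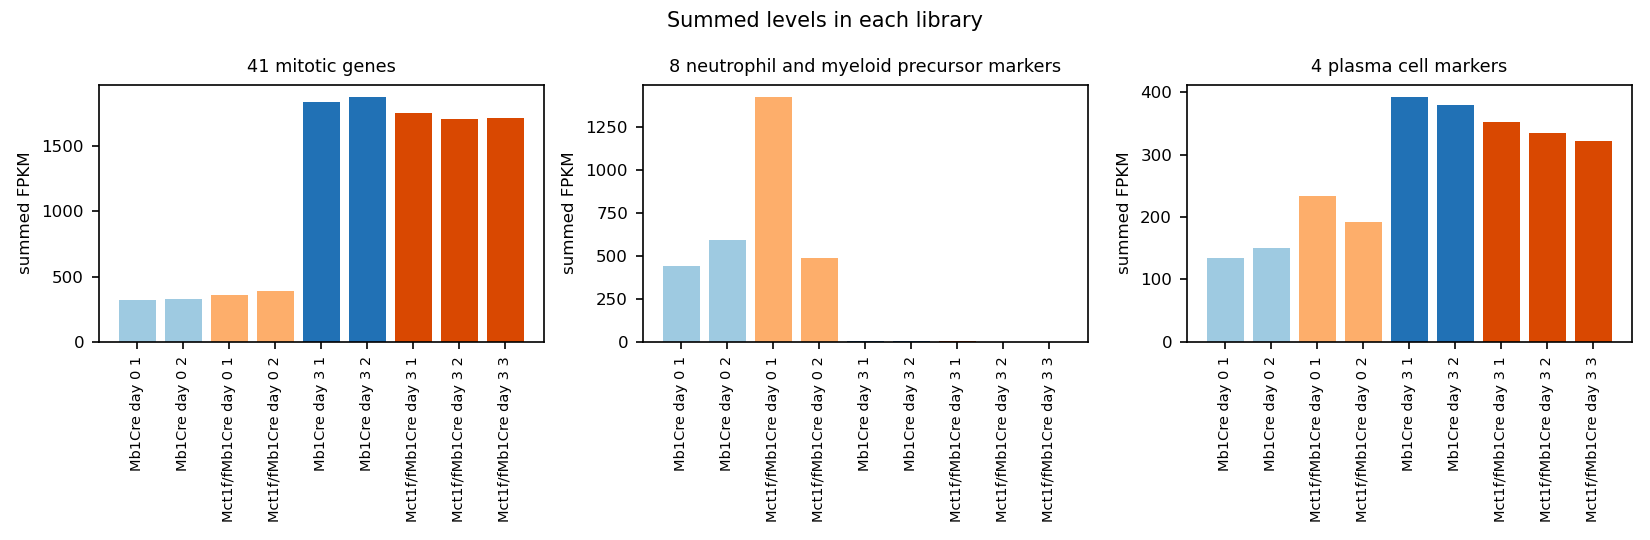
Summed FPKM (y axis, from 0) in each of the 9 libraries (x axis, genotype, day and replicate) for the 41 mitotic genes, 8 neutrophil and myeloid precursor markers and 4 plasma cell markers. The mitotic sum is 320 to 387 on day 0 and 1712 to 1882 on day 3. Mct1f/fMb1Cre day 0 replicate 1 has the highest sum of neutrophil and myeloid precursor markers, 1425.

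The last comparison asked whether the rise itself differed between the genotypes, as the interaction of genotype and day. It shares its libraries with the comparisons above, so its values are not separate evidence. In 40 of 41 members the log2 fold change was lower in Mct1f/fMb1Cre (39 with scaling to the same total or by median of ratios, 38 with quantile normalization), against 53.5% of the tested genes. The median difference was −0.33 against −0.02. Called were 3 of 41, all lower, against 3.23% of the tested genes called and 2.22% called lower: Kifc1, Aurka and Bub1. With the limma adjusted p alone 20 of 41 were lower and 0 higher, against 5.61% of the tested genes lower and 3.82% higher.

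Kifc1 rose 8.88-fold in Mb1Cre and 5.18-fold in Mct1f/fMb1Cre as a ratio of means (difference of log2 fold changes −0.65 ± 0.10 SE, limma adjusted p = 0.00378). Aurka rose 8.83-fold and 5.48-fold (−0.61 ± 0.13, limma adjusted p = 0.0191), and Bub1 11.4-fold and 6.63-fold (−0.58 ± 0.10, limma adjusted p = 0.00682). In all 3 the day 0 mean was higher in Mct1f/fMb1Cre, at 147% to 150% of the control, and the day 3 mean lower, at 86.4% to 91.3%. The day 0 part was the larger on the log2 scale in each: 0.46, 0.49 and 0.38, against −0.18, −0.13 and −0.20 on day 3.

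The other 17 with an adjusted p under 0.05 included Cenpa (−0.46, limma adjusted p = 0.00168, the smallest of the members), Ncapg (−0.45), Birc5 (−0.45), Cdca3 (−0.41), Kif2c (−0.40) and Top2a (−0.38). They came from each of the 7 role groups, 4 of 7 in the centromere and kinetochore group and 4 of 7 in the condensin and chromosome structure group. Members with nearly equal rises were Incenp (−0.00305 ± 0.07), Ttk (−0.04 ± 0.10), Ncapd2 (−0.05 ± 0.06) and Spc24 (−0.08 ± 0.17), and Espl1 alone had a positive value (0.08 ± 0.08). In the order of the libraries Mb1Cre day 0, Mb1Cre day 3, Mct1f/fMb1Cre day 0 and Mct1f/fMb1Cre day 3, leaving out 1 library changed the count of 20 to 13, 16, 6, 5, 16, 7, 18, 10 and 7. Aurka was not called without Mb1Cre day 0 replicate 2, Mb1Cre day 3 replicate 1 or Mb1Cre day 3 replicate 2, where its value was −0.42, −0.63 and −0.60, and with a pseudocount of 5 none of the 3 was called.

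**Figure D5:**
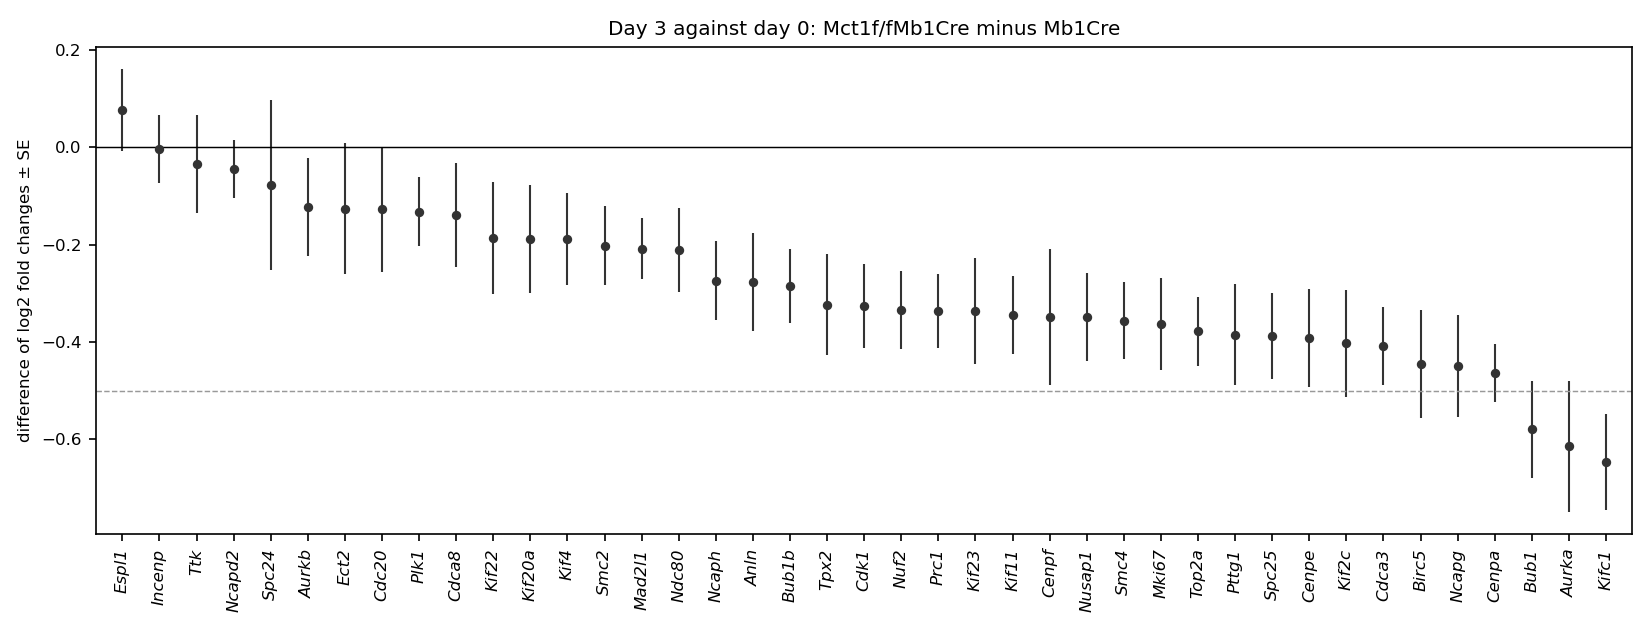
Difference between the genotypes in the log2 fold change of day 3 against day 0 (Mct1f/fMb1Cre minus Mb1Cre, with its SE) for each mitotic gene, in order of the value. The dashed line marks −0.5. Values run from 0.08 (Espl1) to −0.65 (Kifc1), with Kifc1, Aurka and Bub1 below the line.

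Of the other 114 pathway genes 88 had a lower log2 fold change in Mct1f/fMb1Cre than in Mb1Cre, against 53.5% of the tested genes. These include genes that fell with activation, such as Rbl2, for which it means a larger fall. Called were 3, all lower, against 3.23% of the tested genes called and 2.22% called lower. This share was near that of the tested genes, and the 3 names are given as values. Cenpk, a gene of the constitutive centromere network, had −0.76 (limma adjusted p = 0.0476). Hmmr, a spindle-associated protein, had −0.52 (limma adjusted p = 0.00736), and Ckap2l, a spindle protein, had −0.50 (limma adjusted p = 0.014). With the adjusted p alone 12 were lower and 0 higher, against 5.61% of the tested genes lower and 3.82% higher. Among the 12 were the cyclins Ccnb2 (−0.46) and Ccnb1 (−0.40) and Cdc25b (−0.34). Foxm1 (−0.18), Mybl2 (−0.26), Rbl1 (0.12), Rbl2 (−0.14) and E2f4 (0.08) did not pass (limma adjusted p of 0.0752 to 0.517). The exons of Plk1, Cdc20, Kif4, Kif20a, Nusap1, Prc1 and Ncapg overlap those of a gene on the other strand, and the sources used here do not say whether counting used strand, so reads there may be shared.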

How the data were processed

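Reads of 9 libraries had been aligned with Bowtie2 according to the submitters' processing notes, which name the mouse build GRCm38/mm10, and the authors deposited 1 table of FPKM per gene. Versions, strandedness and read totals are not given in the sources used here, so the depth behind each value is unknown and no counting interval can be given. Of 17596 genes, the 10823 with a mean of at least 1 FPKM were fitted with limma 3.58.1 (R 4.3.3) as log2(FPKM + 1), with 4 group means and moderated variances that followed a trend in the mean level. The p-values were adjusted by Benjamini-Hochberg over these genes, and calls needed an adjusted value under 0.05 together with a log2 difference beyond 0.5. Folds on this scale understate changes of low genes. The members, the 114 other pathway genes and the markers were chosen with earlier results of these data known. Genes with values in every library were 18 chosen for their roles, the extremes of each role group, and the genes that passed between genotypes. Motifs were searched in RefSeq promoters of GRCm38.p6, matched by gene ID, at the RefSeq start farthest upstream in that table for the windows shown. For 27 of the 35 promoters, bases after the start were found in a GENCODE transcript of the gene. Alternatives were other pseudocounts, filters, scalings, limits, a replicate block, no trend, only the compared groups and leaving out each library.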

Additional observations from a re-analysis of the deposited data

Results flagged for a closer look

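For 6 genes the change from day 0 to day 3 differed between the genotypes by the interaction term of the limma fit, which is a test of the difference itself. These are 3 of 41 members and 3 of 114 other pathway genes, against 3.23% of the tested genes. The difference of log2 fold changes, Mct1f/fMb1Cre minus Mb1Cre, was −0.646 for Kifc1, −0.614 for Aurka and −0.579 for Bub1 among the members, and −0.76 for Cenpk, −0.525 for Hmmr and −0.501 for Ckap2l among the other pathway genes. All 6 had a higher mean on day 0 in Mct1f/fMb1Cre and a lower mean on day 3. With a replicate block Aurka and the 3 other pathway genes were not called.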

How the results depend on the processing

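The counts of members that rose with activation stayed at 40 of 41 in both genotypes when any single library was left out. The median rise in Mb1Cre was 2.73 with a pseudocount of 0.1, 1.9 with 5, 2.38 with scaling to the same total, 2.68 with median-of-ratios scaling, 2.66 with quantile normalization and 2.49 to 2.62 with 1 library left out. In Mct1f/fMb1Cre it was 2.52, 1.65, 2.13, 2.43 and 2.51 under the first 5 of these. Scaling to the same total moved the median of all genes from −0.12 to −0.31 in Mb1Cre and median-of-ratios scaling to −0.01, and the members stood 2.64 to 2.69 above it under the 3 scalings and without one. With no limit on the fold change, 5 members and 8 other pathway genes passed between genotypes on day 3, 3 and 1 on day 0, and 20 and 12 in the interaction. On day 0 a pseudocount of 0.1 called 2 members and quantile normalization 1, leaving out 1 library called 0 to 1 members and 0 to 1 other pathway genes, and a pseudocount of 5 gave a median of 0.107. In the interaction a pseudocount of 5 or a log2 limit of 1 called 0 members and 0 other pathway genes, and the former gave a median of −0.205. The other pathway genes called there numbered 5 with a pseudocount of 0.1, and 1 with no filter, with median-of-ratios scaling or with quantile normalization. Leaving out 1 library gave 2 to 5 members, 0 to 4 other pathway genes and a median of −0.338 to −0.254.

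Libraries share replicate numbers across groups, and whether the numbers pair them cannot be told from the values. Deviations from the group means of same-numbered libraries correlated at −0.12 between the Mb1Cre days, 0.05 and 0.06 between the Mct1f/fMb1Cre days, −0.05 on day 0 and −0.05 and −0.07 on day 3, over all tested genes. Over the members these were −0.27, 0.03 and 0.01, 0.18, and −0.38 and −0.17. In a group of 2 libraries the deviations mirror each other, so a differently numbered library gives the same value with the opposite sign. With a replicate block the interaction called 2 members and 0 other pathway genes, Aurka no longer being called (adjusted p = 0.056), and with the adjusted p alone 7 members. With the Mb1Cre numbers crossed, chosen after seeing the data, it called 2 and 0. By the adjusted p alone the block gave 1 member on day 3 (5 without it) and 0 on day 0 (3 without it), and the crossed block gave the same counts. Neither block moved a count of called members or other pathway genes in the other comparisons by over 1.5 times. Only Mct1f/fMb1Cre day 3 had a replicate numbered 3, so either block takes that library out of the group differences. With the block the median of the members was −0.0984 between genotypes on day 3 and −0.32 in the interaction. Both medians were the same without that library and with no block, as were the counts of 1, 0 and 7 members by the adjusted p. Causes of these shifts beyond this feature of the design were not tested. No read depth was given, so its limit on small differences is unknown.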
